A study of Rattus norvegicus with 8 samples.

Results

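Ucp3 and 9 genes of fatty acid uptake, activation, oxidation and fuel choice were followed in RNA of castrated male rats at 8 h and 24 h after testosterone propionate. The genes were Ucp3, Ucp2, Pdk4, Angptl4, Cpt1b, Cd36, Lpl, Acsl1, Acadl and Hadha, taken as every gene spot whose name in the array design equals one of these symbols. All 10 were found, with 13 probes among 30367 probes of the array, and all 10 names were also in the RefSeq gene table. After a filter on dim probes, 9 of the 10 could be tested, among 10881 genes in all. Angptl4 was too dim for the filter and is described by its signals alone.

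The arrays were Agilent 2-colour rat arrays, 4 at each time. Each carried RNA of castrated adult male Wistar rats (120 days of age on average) in one dye and RNA of castrated rats given 1 subcutaneous dose of testosterone propionate, an androgen ester, at 4 mg/kg in corn oil in the other dye. All groups were therefore castrated, and no intact animal was part of the comparison. The dyes were swapped on 2 of the 4 arrays at each time, and every ratio below is treated over control on the log2 scale. The labels describe the material as cells of castrated rats and the title of the study names muscle atrophy, but the muscle is not named. The sources used here do not say if RNA was pooled, if control animals were injected with oil or if control RNA was shared between times, so the p-values measure the spread between these arrays, which may be technical. Because the 4 arrays of a time shared a slide, the time and the slide cannot be told apart.

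Ucp3 encodes an uncoupling protein, a carrier of the inner mitochondrial membrane that is found mainly in skeletal muscle and brown fat. Its transcript is known to rise when muscle burns fatty acids, as in fasting, together with other targets of the lipid-activated receptors PPAR alpha and PPAR delta. Fatty acids reach the fibre through lipoprotein lipase (Lpl) and the transporter Cd36, are activated by acyl-CoA synthetases such as Acsl1, pass into mitochondria through carnitine palmitoyltransferase (Cpt1b is the muscle form) and are shortened by enzymes that include Acadl and Hadha. Pdk4 holds back the use of pyruvate by inactivating pyruvate dehydrogenase, and Angptl4 is a secreted inhibitor of Lpl.

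Muscle fibre genes were well represented. Of 14 fibre markers, 10 passed the filter, among them the slow fibre gene Tnnt1, while Myh7 and Tnni1, also of slow fibres, were not well above background on any array. All 5 liver markers, 4 of 6 cardiac markers and 3 of 5 brown fat markers (Ucp1, Dio2 and Ppargc1a) were likewise not well above background on any array, while the brown fat markers Cidea and Cpt1b were measured. Over all genes, replicate 1 at 8 h had the widest ratios, with an SD of 0.444 against 0.18 to 0.201 on the other 8 h arrays. Replicate 2 at 8 h correlated with replicates 3 and 4 at -0.124 and -0.0358 across 10823 genes, whereas the 24 h arrays correlated with each other at 0.229 to 0.706. Genes are not independent replicates, and these correlations only describe the arrays.

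Ucp3 carried the change among the 10 genes. Its start region is shown because Ucp3 was the member past the threshold; it is the RefSeq sequence of the 250 bases before the gene's start on GRCr8, chr1:164227660-164227909, plus strand. Capitals mark matches to the nuclear receptor core motif AGGTCA, searched on both strands.

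Ucp3 upstream: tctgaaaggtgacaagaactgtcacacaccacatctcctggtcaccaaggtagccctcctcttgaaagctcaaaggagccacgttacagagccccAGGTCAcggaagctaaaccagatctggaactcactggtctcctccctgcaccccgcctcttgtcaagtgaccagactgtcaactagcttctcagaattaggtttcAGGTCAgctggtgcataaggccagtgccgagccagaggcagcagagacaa

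The core motif occurred at 2 places in the window, beginning 155 and 50 bases before the start. A match of this kind is common, since 16.2% of all 33469 promoter windows in the table hold at least 1. The share of windows with 2 or more was not counted. No match was found in the 300-base Ucp3 window for its direct repeat with 1 base between, the form known to bind PPAR with RXR, which 0.0538% of windows hold. The forkhead motif GTAAACA (in 3.78% of windows), the androgen and glucocorticoid receptor core motif AGAACA (20.7%) and the inverted repeat of that motif with 3 bases between (0.0149%) had no match in it either. Of the 10 genes, 7 had a window in the table, and AGGTCA was found in 1 of them, that of Ucp3. These matches are letters in a window and say nothing of binding.

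Ucp3 was measured by 1 probe, chr1:157909519-157909578 on rn4, plus strand, the build of the array files. At 24 h its log2 ratio was -2.04, -2.19, -1.90 and -1.76 in replicates 1 to 4. All 4 arrays were low, in both dye orientations, and they lay close together. In the control channel the log2 signal stood at 9.92, 9.02, 10.04 and 9.56, and in the treated channel at 7.88, 6.83, 8.13 and 7.80. The highest treated level lay below the lowest control level, so the groups did not overlap, and all 8 signals were well above background. A treated level below every control level occurred in 4.77% of all genes at 24 h.

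The fitted change of Ucp3 at 24 h was -1.97 (SE 0.12, 95% confidence interval -2.24 to -1.71), a 3.93-fold lower level, with an adjusted p of 4.09e-05 in limma. Only 2 of the 10881 genes had a lower fitted ratio at 24 h. Across the array, 7.07% of genes passed the threshold (adjusted p under 0.05) at 24 h and 2.91% passed it as lower. The mean of the arrays with treated RNA in Cy5 was -2.11 and with treated RNA in Cy3 -1.83.

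At 8 h the ratio of Ucp3 was -1.08, -0.36, -0.77 and -0.46 in replicates 1 to 4. All 4 arrays were below 0, as were those of 12.1% of all genes, but they were spread over a wider range than at 24 h. Control signals stood at 10.09, 9.46, 9.04 and 9.02, and treated signals at 9.01, 9.10, 8.27 and 8.56. The treated level of replicate 2 lay within the range of the control levels, so the groups overlapped. The fitted ratio was -0.67 (SE 0.12, 95% interval -0.93 to -0.41) with an adjusted p of 0.136 in limma, which did not pass; 23 genes had a lower fitted ratio. Without replicate 2 of 8 h the ratio was -0.77 with an adjusted p of 0.0127, in a fit that called 1229 genes at 8 h in place of 3. With each array centred on its median in place of loess it was -0.33 (adjusted p = 0.31).

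The ratio of Ucp3 was lower at 24 h than at 8 h by a fitted difference of -1.30 (SE 0.17, 95% interval -1.68 to -0.93), with an adjusted p of 0.00805 in limma. Between times 1.30% of genes passed, 0.57% with the lower ratio at 24 h. Every 24 h array lay below every 8 h array, but the share of all genes that do so was not counted. With the same median centring the difference was -1.33 and its adjusted p was 0.304, in a fit that called 0 genes between times.

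Some markers of muscle fibres and of other cells moved over the same arrays. Of all genes 7.07% passed at 24 h. The 10 measured fibre markers had a median ratio of -0.31 at 24 h, and 3 passed. Acta1 (skeletal actin) at -0.44 and Actn3 (fast fibre actinin) at -0.55 were lower, and Myh1 (a heavy chain of fast fibres) at 1.33 was higher. At 8 h the fibre list had a median of 0.012. Myh1 was then at -1.55, from -2.68 to -0.02 on the arrays, and did not pass (adjusted p = 0.15 in limma). Its difference between times was 2.88 and passed (adjusted p = 0.0101 in limma), with time and slide not to be told apart. With median centring the median of the fibre list was 0.079 beside 0.155 over all genes, Acta1 and Actn3 stood at -0.027 and -0.091 and did not pass, and Ucp3 stood at -1.65 and passed. With the processed signals Acta1 (-0.30, adjusted p = 0.28) and Actn3 (-0.35, adjusted p = 0.208) did not pass. The summed log2 signal of the fibre list was 17.11 to 17.34 in controls and 16.79 to 17.02 in treated samples at 24 h. The 7 measured macrophage markers had a median of 0.37 at 24 h, with Cd163, C1qa and C1qc higher at 0.50, 0.69 and 0.43, and a median of -0.24 at 8 h. The 4 measured endothelial markers had a median of 0.035 at 24 h, with 2 of them below 0. Among them the growth factor receptor Kdr was higher at 0.36 (adjusted p = 0.0413 in limma). Kdr did not pass with the processed signals (0.52, adjusted p = 0.0858). In bulk RNA, fewer cells of a type and less RNA per cell cannot be told apart, and the part of these shifts in the ratio of Ucp3 was not tested. The 10 measured fibre markers ran from -0.55 to 1.33 at 24 h, beside -1.97 for Ucp3, and this comparison of sizes does not test that part.

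**Figure D1:**
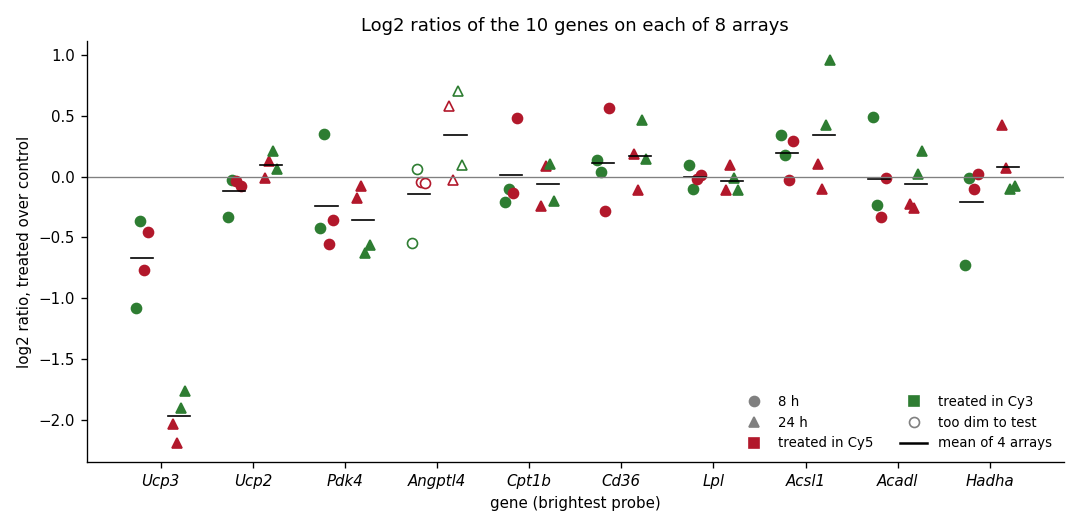
Log2 ratio of treated over control (vertical axis) for the brightest probe of each of the 10 genes (horizontal axis) on every array, with circles for 8 h, triangles for 24 h, colours for the dye of the treated RNA and bars for the mean of 4 arrays. Ucp3 at 24 h lies between -2.19 and -1.76, while no other gene has a ratio below -0.73 on any array.

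Of the 9 tested genes, 1 passed at 24 h (7.07% of all genes), 0 at 8 h and 1 between times (1.30%), and each pass was Ucp3. These counts are no result about the 9 genes as a set. At 8 h 0.0276% of all genes passed, 3 in number, and 1863 genes had an unadjusted p under 0.05. Among the 9, an unadjusted p under 0.05 was reached by 1 gene at 8 h (17.1% of all genes), 3 at 24 h (22.1%) and 1 between times (16.3%). Without replicate 2 of 8 h, 3 of the 9 passed at 8 h (Ucp3, Pdk4 and Hadha), where 11.3% of all genes passed, and 2 at 24 h (Ucp3 and Pdk4), where 10.1% did, 1095 in number. At 24 h 5 of the 9 fitted ratios were below 0 and 4 above. Their median was -0.034, beside 0.000148 over all genes, and at 8 h it was -0.023 beside -0.012. A p that misses the threshold does not show that a gene kept its level, so the intervals below give what each estimate allows.

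Ucp2, the widely expressed relative of Ucp3, lies near it on chromosome 1 and did not pass at either time. Its probe was printed in 10 spots per array and lies at chr1:157927128-157927571 on rn4, plus strand, where the 60 bases span 444 bases of the genome, so the probe joins separate stretches of the gene. The probe is shown because it is the sequence that measured the closest relative.

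Ucp2 probe: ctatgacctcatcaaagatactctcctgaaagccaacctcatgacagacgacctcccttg

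At 8 h the ratio of Ucp2 was -0.33, -0.03, -0.04 and -0.08, and at 24 h it was -0.02, 0.13, 0.21 and 0.06 in replicates 1 to 4. The first array at 8 h stood apart from the other 3, and the sign was negative on all 4 arrays at 8 h but on 1 of 4 at 24 h. At 8 h every treated level lay below every control level, as in 3.58% of all genes. The fitted ratio was -0.12 (95% interval -0.29 to 0.048, adjusted p = 0.409) at 8 h and 0.096 (95% interval -0.073 to 0.26, adjusted p = 0.529) at 24 h in limma. Signals were near the limit of measurement. At 24 h the control channel was not well above background on any of the 4 arrays and the treated channel was on all 4. The treated mean lay 1.07-fold above the control mean, which is the measured ratio and no lower bound. With the processed signals the ratio at 24 h was 0.71 (adjusted p = 0.0698). Control values that lay lower were to be raised to the lowest signal of a probe well above background on their array. This left the control mean at 6.222.

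**Figure D2:**
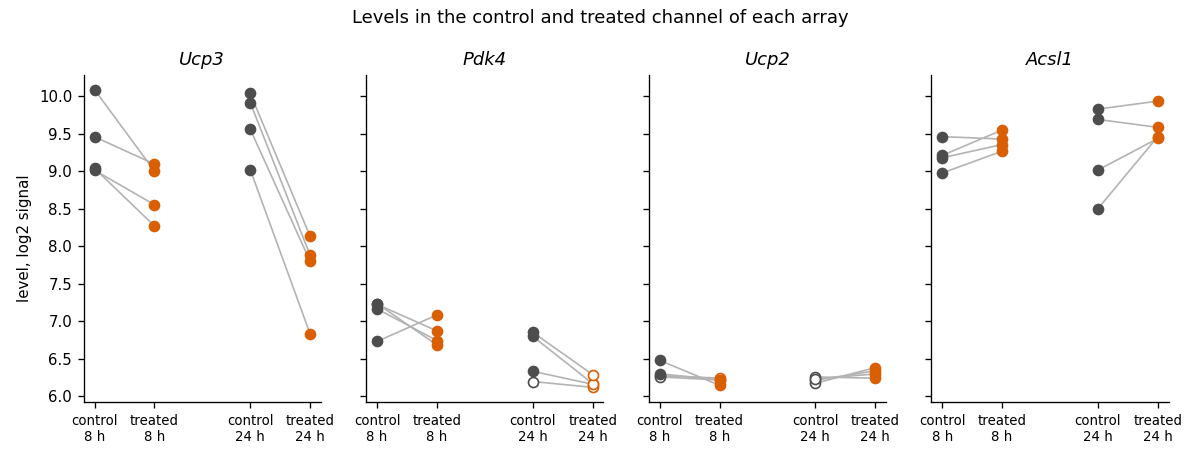
Log2 signal (vertical axis) in the control (grey) and treated (orange) channel of each array at 8 h and 24 h for 4 genes, with lines joining the channels of one array and open circles for signals not well above background. All 4 Ucp3 lines fall at 24 h and the groups do not overlap; Pdk4 and Ucp2 lie close to the background, and the control signals of Acsl1 at 24 h spread from 8.50 to 9.83. Levels of different genes are not comparable here.

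Pdk4, the pyruvate dehydrogenase kinase that rises in fasted muscle, had negative fitted ratios at both times that did not pass. Its probe lies at chr4:30239150-30241038 on rn4, minus strand, where 60 bases span 1889 bases of the genome. It is printed because at 24 h its signal in treated samples was mostly not well above background.

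Pdk4 probe: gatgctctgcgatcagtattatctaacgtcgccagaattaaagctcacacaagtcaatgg

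At 24 h the ratio of Pdk4 was -0.17, -0.08, -0.63 and -0.56 in replicates 1 to 4. All 4 arrays were below 0, as in 13.7% of all genes, and the 2 arrays with treated RNA in Cy3 were the low ones. Control signals were 6.33, 6.20, 6.80 and 6.86 and treated signals 6.16, 6.12, 6.17 and 6.29, so the groups overlapped. The signal was well above background in 3 of 4 control samples and 1 of 4 treated samples. The fitted ratio was -0.36 (SE 0.15, 95% interval -0.69 to -0.03) with an adjusted p of 0.185 in limma. It passed when the 24 h arrays were fitted alone (adjusted p = 0.00812) and without replicate 2 of 8 h (adjusted p = 0.0257), both at the same ratio. With the scanner's processed signals, which differ in background correction, dye normalization and offset together, it was -1.96 (adjusted p = 0.0746), and without background correction alone it was -0.47.

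At 8 h the ratio of Pdk4 was -0.42, 0.35, -0.55 and -0.35. Replicate 2 was high and the other 3 were low. All signals were well above background, and the fitted ratio was -0.24 (95% interval -0.58 to 0.086, adjusted p = 0.396) in limma. It was -0.49 (adjusted p = 0.0184) without replicate 2, -0.12 (adjusted p = 0.769) without replicate 3, -0.056 (adjusted p = 0.784) with median centring and -0.57 (adjusted p = 0.571) with the processed signals.

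Angptl4 was measured by 1 probe, chr7:16261624-16261683 on rn4, minus strand, that failed the filter on dim probes. Its ratio at 24 h was 0.58, -0.03, 0.70 and 0.10. Replicates 1 and 3 were high, and these were the arrays on which the treated channel was well above background, while the control channel was not on any of the 4. The mean log2 signal at 24 h was 6.48 in treated and 6.14 in control samples, neither of which was measured on all 4 arrays, so no fold is given. At 8 h the ratio was -0.54, 0.06, -0.04 and -0.05, with 2 of 4 control and 2 of 4 treated samples well above background. With no filter on dim probes its adjusted p was 0.275 at 24 h and 0.736 at 8 h in limma.

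Of the 10 genes, those of uptake and activation (Acsl1, Cd36 and Lpl) showed no call. Acsl1, which attaches coenzyme A to long chain fatty acids, had the highest fitted ratio of the 9 genes at 24 h (chr16:49036985-49037044 on rn4, minus strand). Its ratio was 0.11, -0.11, 0.42 and 0.96 in replicates 1 to 4 at 24 h. The arrays with treated RNA in Cy3 were both high, with a mean of 0.69, and those with treated RNA in Cy5 had a mean of 0.00032. Control signals of Acsl1 were 9.83, 9.69, 9.02 and 8.50 and treated signals 9.94, 9.59, 9.44 and 9.46, so the control samples held most of the spread. In the fit it stood at 0.35 (SE 0.12, 95% interval 0.087 to 0.60) with an adjusted p of 0.109 in limma, and it passed when the 24 h arrays were fitted alone (adjusted p = 0.0397) or with the replicate number as a block (adjusted p = 0.0352). Without replicate 4 it was 0.18 (adjusted p = 0.412), with the processed signals 0.21 (adjusted p = 0.417) and with median centring 0.74 (adjusted p = 0.112). At 8 h it was 0.19 (95% interval -0.065 to 0.45, adjusted p = 0.392), with 1 of 4 arrays below 0.

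Cd36, a fatty acid transporter of the cell surface, had 2 probes on chromosome 4, at chr4:13525426-13525485 and chr4:13522273-13522332 on rn4, plus strand. The brighter probe gave ratios from -0.28 to 0.56 at 8 h and from -0.11 to 0.47 at 24 h, with 1 of 4 arrays below 0 at each time. Its fitted ratio was 0.11 (95% interval -0.17 to 0.40, adjusted p = 0.663) at 8 h and 0.17 (95% interval -0.12 to 0.46, adjusted p = 0.508) at 24 h in limma. The other probe had narrower intervals, -0.20 to 0.11 around -0.046 at 8 h and -0.14 to 0.17 around 0.013 at 24 h. At 8 h the probes thus differed in sign, with both intervals spanning 0.

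Lpl, which frees fatty acids from circulating triglyceride, had the narrowest range of ratios over the 8 arrays among the brightest probes of the 10 genes (chr16:22533294-22533353 on rn4, minus strand, 10 spots per array). All 8 ratios lay between -0.11 and 0.10. Fitting gave -0.0041 (95% interval -0.16 to 0.15, adjusted p = 0.98) at 8 h and -0.034 (95% interval -0.19 to 0.12, adjusted p = 0.84) at 24 h in limma. Both channels were well above background on all 8 arrays. The signals were low, however, with group means from 6.42 to 6.47 on the log2 scale, and low signals limit the spread of ratios.

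The carnitine step and the oxidation enzymes likewise gave no call. Cpt1b had 2 probes on chromosome 7, at chr7:127737188-127737247 and chr7:127743961-127744020 on rn4, minus strand. The brighter one gave -0.21, -0.10, -0.13 and 0.48 at 8 h, where replicate 4 was high, and -0.24 to 0.11 at 24 h. Its fitted ratio was 0.0096 (95% interval -0.24 to 0.26, adjusted p = 0.972) at 8 h and -0.064 (95% interval -0.31 to 0.19, adjusted p = 0.81) at 24 h in limma. The dimmer probe was below 0 on all 4 arrays at 24 h, between -0.22 and -0.088, with a fitted ratio of -0.16 (adjusted p = 0.212), and its treated signal was well above background on 2 of 4 arrays.

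Acadl, the long chain acyl-CoA dehydrogenase of the first step of oxidation, lies at chr9:65613235-65613294 on rn4, minus strand. Its ratios ran from -0.33 to 0.49 at 8 h and from -0.26 to 0.21 at 24 h. Its fitted ratio was -0.023 (95% interval -0.27 to 0.22, adjusted p = 0.927) at 8 h and -0.063 (95% interval -0.31 to 0.18, adjusted p = 0.805) at 24 h in limma. At 24 h the means by dye had opposite signs, -0.24 with treated RNA in Cy5 and 0.12 in Cy3.

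Hadha, the alpha subunit of the trifunctional protein that completes several later steps, had 2 probes on chr6_random, an unplaced part of chromosome 6, at 452613-452672 and 467174-467737 on rn4, plus strand. The brighter one gave -0.73, -0.01, -0.10 and 0.02 at 8 h, where replicate 1 was low, and -0.11 to 0.42 at 24 h. For Hadha the fit gave -0.21 (95% interval -0.45 to 0.035, adjusted p = 0.341) at 8 h and 0.076 (95% interval -0.17 to 0.32, adjusted p = 0.754) at 24 h in limma. The 8 h ratio was -0.065 (adjusted p = 0.962) without replicate 1, -0.35 (adjusted p = 0.0468) without replicate 2 and 0.13 (adjusted p = 0.577) with median centring. The other probe stood at -0.11 and -0.07.

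**Figure D3:**
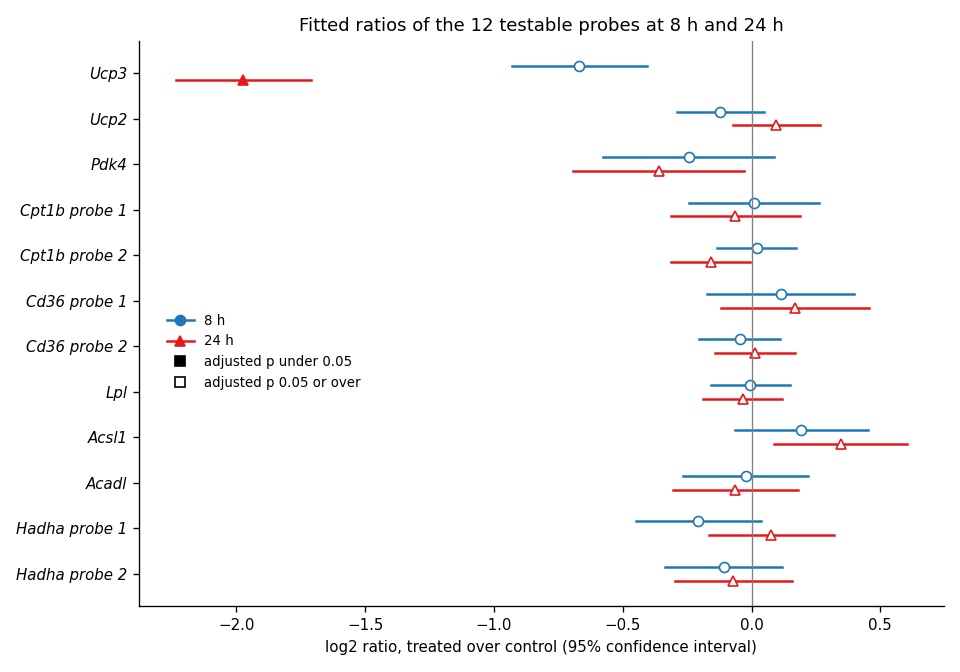
Fitted log2 ratio (horizontal axis) with its 95% confidence interval for the 12 testable probes (vertical axis) at 8 h (circles) and 24 h (triangles), filled where the adjusted p is under 0.05. Ucp3 at 24 h, at -1.97, is the filled symbol, and the intervals of most other probes span 0.

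The wider pathway was read from 8 lists that also hold the 10 genes. Without the 10 genes, 123 genes were listed, 119 were on the array by name and 81 were measured. At 24 h 7 of the 81 passed, 4 higher and 3 lower, which is 8.64% beside 7.07% of all genes (4.15% higher and 2.91% lower), a share near the background. None of the 81 passed at 8 h, where 0.0276% of all genes did. Between times 2 passed, Fabp4 and Klf15, which is 2.47% beside 1.30% of all genes. The median ratio of the 81 was -0.031 at 24 h and 0.042 at 8 h, beside 0.000148 and -0.012 over all genes. Leaving out replicate 2 of 8 h gave 7 passing genes at 8 h and 6 between times, in a fit that called 11.3% and 5.44% of all genes, and leaving out replicate 1 or 4 of 24 h gave 3 or 4 at 24 h. Between times 1 passed without replicate 3 or 4 of 8 h, and 0 without replicate 1 of 24 h. Over all genes, leaving out replicate 1 of 24 h gave 189 calls at 24 h in place of 769. Between times it gave 29 in place of 141. For the other arrays left out the calls over all genes are not given beside these counts, which are no result about the pathway genes alone.

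No oxidation gene passed in the mitochondrial list. All 19 of its genes were measured. At 24 h 13 of them were below 0, with a median of -0.031 and a range from -0.26 to 0.10, but with median centring 1 was below 0 and the median was 0.21 beside 0.155 over all genes. The smallest p-values belonged to Hadh at -0.23 (adjusted p = 0.13), Acad10 at -0.26 (adjusted p = 0.192) and Acad9 at -0.12 (adjusted p = 0.324) in limma. The peroxisomal list had 6 measured genes of 12, none of which passed, with Hsd17b4 at -0.18 (adjusted p = 0.193) and Abcd3 at 0.19 (adjusted p = 0.2). The carnitine list had 6 of 10 measured, led by Mlycd at -0.17 (adjusted p = 0.227), Crat at 0.17 (adjusted p = 0.354) and Acacb at -0.16 (adjusted p = 0.398), and none passed.

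Of the 21 genes of uptake and activation 12 were measured. At 24 h 2 of them were higher and 1 lower, where 7.07% of all genes passed. Fabp4, a fatty acid binding protein of fat cells, macrophages and capillaries, had ratios of 0.54, 0.48, 0.36 and 0.35 at 24 h and was below 0 on all 4 arrays at 8 h. Its fitted ratio was 0.43 (SE 0.06, adjusted p = 0.0039) at 24 h, and its difference between times was 0.60 (adjusted p = 0.0128) in limma. That difference did not pass without replicate 3 or 4 of 8 h (0.57 and 0.60, adjusted p = 0.0629 and 0.0524), without replicate 1 of 24 h (0.57, adjusted p = 0.0728) or with median centring. With the processed signals the 24 h ratio was 0.82 and the difference 1.20, and both passed. Fabp4 is also on the adipocyte list, whose 4 measured genes had a median of 0.41 at 24 h and -0.16 at 8 h, while Cidec, Lep and Slc7a10 were not well above background on any array. The summed log2 signal of that list was 10.51 to 10.85 in controls and 10.68 to 11.40 in treated samples at 24 h, and its part in the ratio of Fabp4 was not tested.

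Fabp5, a related binding protein, was higher at 0.53 (adjusted p = 0.0182), with ratios of 0.71, 0.23, 0.80 and 0.37 at 24 h. Acsl6, another acyl-CoA synthetase, was lower at -0.27 (adjusted p = 0.0334), from -0.31 to -0.20 on the 4 arrays. Fabp5 lost its call without replicate 1 or 3 of 24 h (0.47 and 0.40, adjusted p = 0.133 and 0.0884) and with the processed signals (0.79, adjusted p = 0.0895). Acsl6 lost it with median centring (-0.22, adjusted p = 0.0991), with the replicate number as a block (-0.27, adjusted p = 0.0718), without each 24 h array in turn (-0.29 to -0.25, adjusted p up to 0.145) and without replicate 3 or 4 of 8 h (-0.27 in both, adjusted p = 0.0571 and 0.0532). With the processed signals it was -0.62 and passed.

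The pyruvate dehydrogenase list held 11 measured genes of 14, Pdk4 included. At 24 h 1 was higher and 1 lower, where 7.07% of all genes passed. Pdk2, the kinase of the same family that is steadily expressed in many tissues, was lower at -0.44 (SE 0.092, adjusted p = 0.0216), with ratios of -0.55, -0.50, -0.05 and -0.66. Replicate 3 stood near 0 and the other 3 were low. Mpc2, a subunit of the mitochondrial pyruvate carrier, was higher at 0.44 (adjusted p = 0.0254), with ratios of 0.73, 0.23, 0.20 and 0.60, while a dimmer probe of Mpc2 stood at 0.049 (adjusted p = 0.734). Pdk2 lost its call without replicate 1, 2 or 4 of 24 h (-0.45, -0.46 and -0.31, adjusted p = 0.115, 0.0718 and 0.0736), and Mpc2 without replicate 1 or 4 (0.34 and 0.36, adjusted p = 0.174 and 0.12). Neither passed with the processed signals (Pdk2 at -0.43, Mpc2 at 0.23) or with median centring (-0.079 and 0.82).

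The PPAR, PGC-1 and energy sensing list held 30 genes, of which 19 were measured. None of the 19 passed at either time. Ppara, Ppargc1a and Ppargc1b, which encode PPAR alpha and the PGC-1 proteins, were among those not measured and have no result here. The smallest p-values at 24 h were those of Ncoa1, a nuclear receptor coactivator, at -0.24 (adjusted p = 0.0728), Foxo3, a forkhead factor of starved muscle, at -0.25 (adjusted p = 0.0854) and Nrip1, a corepressor, at 0.26 (adjusted p = 0.171) in limma. The list of other PPAR and fasting responsive genes of muscle had 11 measured genes of 19, with a median of -0.064 at 24 h.

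Klf15, a transcription factor that glucocorticoids and fasting are known to raise in muscle, was lower on every array in that list. Its ratio was -0.15, -0.26, -0.47 and -0.55 at 8 h and -1.22, -1.11, -1.16 and -0.92 at 24 h. As for Ucp3, every 24 h array lay below every 8 h array, a pattern whose share over all genes was not counted. The fitted ratio at 24 h was -1.10 (SE 0.07), past the threshold under all 18 alternatives that could change it (-1.76 with the processed signals), and the difference between times was -0.75 (adjusted p = 0.0097) in limma. That difference did not pass without replicate 1 of 24 h (-0.74, adjusted p = 0.0548) or with median centring. Txnip, which restrains glucose uptake, was higher at 0.70 (adjusted p = 0.0043) at 24 h with ratios of 1.29, 1.11, 0.40 and -0.02, high with treated RNA in Cy5 and lower in Cy3; without the dye coefficient its adjusted p was 0.0837.

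**Figure D4:**
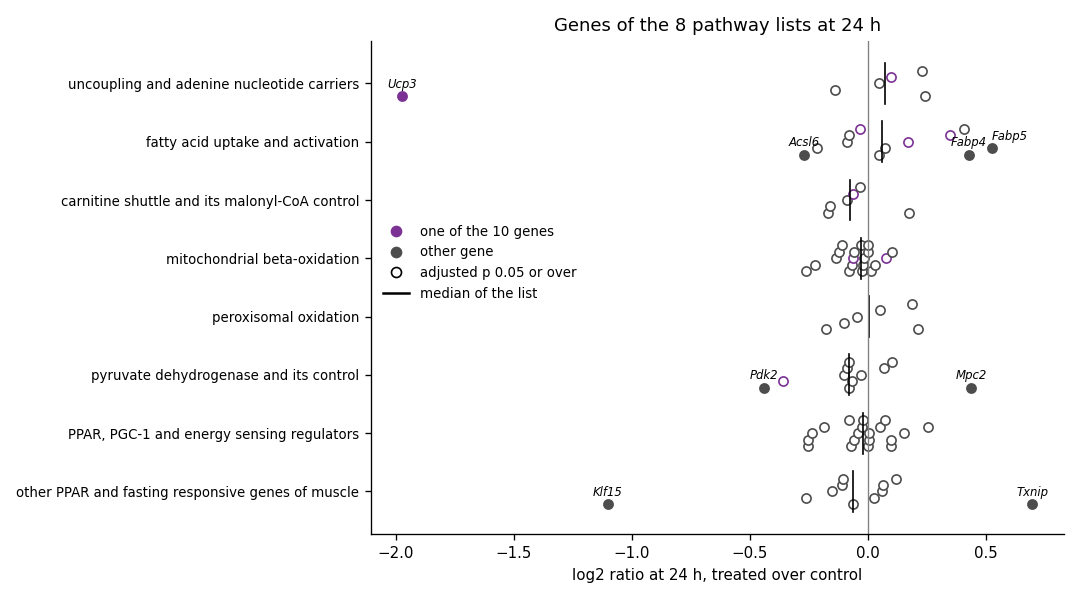
Fitted log2 ratio at 24 h (horizontal axis) of every measured gene in the 8 pathway lists (vertical axis), filled where the adjusted p is under 0.05, purple for the 10 genes and grey for others, with a bar at each list's median. Ucp3 at -1.97 and Klf15 at -1.10 lie far to the left, and every list median lies between -0.08 and 0.08.

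The genes that moved most like Ucp3 over the 8 arrays were sought among 7518 other genes with a symbol, by Pearson correlation of their ratios. The highest were Abhd4, a lipid hydrolase (r = 0.954), Lrrc2, a leucine-rich repeat protein (r = 0.947), Gabarapl1, an autophagosome protein (r = 0.943), Klhl21, an adaptor of a ubiquitin ligase (r = 0.94), and Fbxo25, an F-box protein (r = 0.94). The 8 points share slides and possibly control RNA, and the 2 times form separate clusters, so these values only rank likeness. At 24 h Gabarapl1 stood at -1.23, Klhl21 at -0.76, Lrrc2 at -0.69 and Abhd4 at -0.67, all past the threshold, and Fbxo25 at -0.19 (adjusted p = 0.11). Of all genes 2.91% passed as lower at 24 h. Because the 5 genes were chosen on these same arrays for following Ucp3, their lower ratios at 24 h were largely set by the choice and are no separate result. At 8 h none of the 5 passed, with fitted ratios from -0.18 to 0.057. Dimmer probes of Gabarapl1 and Klhl21 stood at -0.21 and -0.24 at 24 h and did not pass. Among the other 8 tested genes, the correlation with Ucp3 ran from -0.536 (Ucp2) to 0.254 (Pdk4 and Cpt1b).

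**Figure D5:**
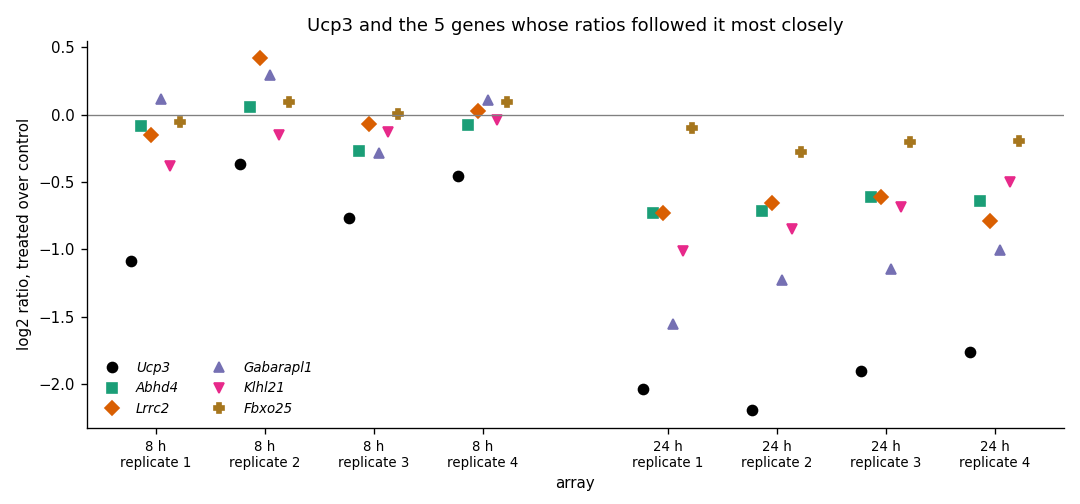
Log2 ratio of treated over control (vertical axis) on each of the 8 arrays (horizontal axis) for Ucp3 and the 5 genes with the highest correlation with it, 1 symbol per gene. All 6 genes lie lower at 24 h than at 8 h on average, which for the other 5 was largely set by choosing them. Ucp3 is the lowest on every array.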

How the data were processed

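The arrays carried treated RNA in one dye and control RNA in the other (8 arrays). The submitters' processing notes name Agilent Feature Extraction 9.5.3.1. The deposited scanner columns used are intensities on a linear scale: mean signals with local median backgrounds, not normalized, and, as an alternative, processed signals corrected for background and dye, per the file headers. LogRatio is a log10 ratio of Cy5 over Cy3, per the file headers. The authors' deposited values are log2 ratios with no stated scale or direction. They equalled the log2 ratio of treated over control from the processed signals within 1.35e-05, with column medians from -0.144 to 0.0896 and no added centring.

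Signals were corrected by normexp (offset 50) and loess in limma 3.58.1 (R 4.3.3), flagged spots were left out, and ratios were turned to treated over control by the labels' dyes. A probe was kept if well above background on at least 3 of 4 arrays in at least 1 group, and the brightest kept probe stood for its gene. Probes were named through the RefSeq gene table (GRCr8, names only) where possible; positions are those of the array files (rn4), and exons were not assigned. Levels are log2 signals after loess and Aquantile scaling. lmFit and eBayes fitted a coefficient per time and a dye coefficient to all 8 arrays (two-sided, Benjamini-Hochberg over all genes, threshold 0.05); intervals are per gene, unadjusted. A few genes had no value at 8 h, so 10877 were tested there and between times. The fit was tested on simulated data. The number of arrays limits the precision.

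The members, lists and tests were chosen with earlier results of these data known. Besides the 10 genes, the text names list genes past the threshold, or the 3 with the smallest p at 24 h in a list with none (1 of these is not reported here), the 5 genes most like Ucp3, and markers past the threshold. Alternatives covered background correction, scaling, probe filter, probe choice, dye, weights, replicate block, each time alone and leaving out each array; they were applied to the other pathway genes after seeing the data.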

Additional observations from a re-analysis of the deposited data

Results flagged for a closer look

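Of 26 sets of 4 arrays (each member probe at each time), 3 held an array far from the other 3, where chance alone gives about 1 in 20. Ucp2 at 8 h stood at -0.333 in replicate 1, against -0.0796 to -0.0309. Hadha at 8 h stood at -0.73 in replicate 1, against -0.104 to 0.0193. Cpt1b at 8 h stood at 0.48 in replicate 4, against -0.207 to -0.101. Replicate 1 was also the 8 h array with the widest spread over all genes (SD 0.444); its part in these values was not tested.

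Only genes of the pathway lists were looked at for a difference between times. Among them the ratio at 24 h minus that at 8 h passed for Ucp3 (-1.30), Klf15 (-0.746) and Fabp4 (0.596). Over all genes 141 passed (1.30%), among them Myh1 (2.88), C1qc (0.77) and Gabarapl1 (-1.29), so the difference is not particular to these genes. The 2 times were hybridised on separate slides.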

How the results depend on the processing

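Ucp3 at 24 h ran from -2.32 to -1.65 and passed under 18 of 18 alternatives that could change it (highest adjusted p 0.00958); Aquantile scaling between arrays leaves ratios as they are and is not counted. With each array centred on its median and no loess, all genes had a median of 0.155 at 24 h and of 0.122 at 8 h. That setting called 0 genes at 8 h, 401 at 24 h (383 higher and 18 lower, against 452 and 317) and 0 between times, with 0 members and 0 other pathway genes between times and 4 of the latter at 24 h. Ucp3 between times was then -1.327 (adjusted p = 0.304). The processed signals called 1 gene at 8 h and 86 between times, leaving out the dye coefficient 1 and 93, and array weights 1537 at 24 h and 277 between times, with 11 other pathway genes at 24 h and 4 between times. Each time alone gave 0 genes at 8 h and 1595 at 24 h, with 3 members at 24 h (Ucp3, Pdk4 and Acsl1). The replicate block called 7 genes at 8 h, 307 between times and 2 members at 24 h (Ucp3 and Acsl1, adjusted p = 0.0352). Same-numbered arrays deviated together at r from -0.262 to 0.172, which cannot settle if the numbers pair them.

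Leaving out 1 array at a time gave 0 to 1229 genes at 8 h, 189 to 1235 at 24 h and 29 to 592 between times, members from 0 to 3, from 1 to 2 and 1 throughout, and other pathway genes from 0 to 7, from 3 to 10 and from 0 to 6. Ucp3 at 8 h ran from -0.7731 to -0.4857. The 1229 and 592 came without replicate 2 of 8 h, the 189 and 29 without replicate 1 of 24 h and the 1235 without replicate 1 of 8 h.

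Of 424 values of the other members under alternatives, 388 kept sign and call, 6 gained a call and 30 changed sign without one. Lpl at 8 h turned to 0.01163 without background correction, 0.0008023 with processed signals and 0.04897 with median centring. Median centring also turned Acadl (0.3649) and Hadha (0.1276) at 8 h, Cpt1b (0.3083), Lpl (0.05112) and Acadl (0.3036) at 24 h, and Lpl between times (0.002157). Between times, processed signals turned Cd36 to -0.01093 and array weights turned Pdk4 to 0.1068 and Lpl to 0.002945. With 1 array left out, at 8 h Cpt1b ran from -0.1486 to 0.09674, Cd36 from -0.08894 to 0.2496, Lpl from -0.05 to 0.03073 and Acadl from -0.1606 to 0.1266. At 24 h Cpt1b ran from -0.1608 to 0.03812 and Lpl from -0.08105 to 0.002375. Between times Pdk4 ran from -0.2455 to 0.1278, Cpt1b from -0.1704 to 0.08504, Cd36 from -0.08043 to 0.2581, Lpl from -0.07697 to 0.01621, Acsl1 from -0.0123 to 0.273 and Acadl from -0.1894 to 0.09791. The cause of these changes was not tested. Ucp2, Pdk4 and Angptl4 lay near background, which limits their ratios. Lpl was well above background on every array but also had low signals.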
